A study of Mus musculus with 14 samples.

Results

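Immunoglobulin light chain RNA was followed in 14 libraries of mouse spleen B cells through the rows of the count tables that belong to light chain gene segments. The rows were chosen by name, as all those starting with Igkv, Igkj, Igkc, Iglv, Iglj or Iglc, and there were 114 of 41053 rows in each table. They comprised 104 kappa variable (Igkv) rows, 5 kappa joining (Igkj) rows, the kappa constant row Igkc, 3 lambda variable (Iglv) rows and the lambda constant row Iglc2. No row name began with Iglj, and other lambda constant genes were not analysed here, so the lambda constant level rests on Iglc2 alone.

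The series concerns TET2, a dioxygenase that acts on methylated DNA, and RNA was sequenced from spleen cells of C57BL/6 mice. Germinal center (GC) B cells, which divide and mutate their antibody genes in response to antigen, were represented by 4 libraries with the genotype label TET2 Knock-Out (KO, replicates 2, 3, 4 and 5) and 3 labelled TET2 Wild-Type (WT, replicates 1, 3 and 4). The lymphoma B cell samples comprised 5 control libraries labelled TET2 Wild-Type (replicates 1 to 5) and 2 labelled TET2 Knock-Down (shTet2, replicates 1 and 2), named shTet2 in the design text, the usual form for a short hairpin RNA against Tet2. The sources used here give neither the age of the mice, the part of Tet2 that was deleted, the origin of the lymphoma, the hairpin vector, nor whether libraries of a group came from separate animals. P-values therefore measure the spread between these libraries, which may be technical in part.

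A light chain is made when a B cell joins a variable (V) segment to a joining (J) segment, and the joined exon is spliced to a constant (C) region. Mouse B cells mostly use the kappa locus, and a cell with a productive joint normally expresses a single light chain, so that V usage in RNA reflects both which clones are present and how much light chain RNA each makes. A population of many clones spreads its V counts over many segments, and an expanded clone raises the share of its own segment.

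Total counts were 27191862 to 30434184 in the GC libraries and 6691167 to 18598386 in the lymphoma libraries. A set of rows taken here as ribosomal and structural RNA held 0.342% to 1.204% of the GC counts and 42.5% to 74.0% of the lymphoma counts. Yam1 and Lars2 were placed in this set by choice, although Lars2 is not itself a ribosomal RNA gene. Tet2 itself stood at 11.9, 14.6, 13.3 and 14.5 CPM (reads scaled to a common library size) in the libraries labelled KO and at 13.4, 11.8 and 14.2 in those labelled WT (log2 fold change 0.04 ± 0.13 SE, edgeR adjusted p = 0.909). Its level was 54.9 and 50.7 CPM in the shTet2 libraries and 68.0, 64.1, 58.1, 57.5 and 57.8 in the control lymphomas (log2 fold change -0.21 ± 0.10 SE, edgeR adjusted p = 0.295). The KO and WT ranges overlapped, while both shTet2 values lay below all 5 controls. Neither difference passed the adjusted test, and the group names below are those of the labels. The 8 pan B cell markers summed to 5567 to 6031 CPM in GC and to 3894 to 4319 CPM in lymphoma libraries, and the 8 GC markers to 1979 to 2645 and 242 to 885 CPM (all 14 libraries scaled together). T cell, myeloid and erythroid lists stayed at or below 193 CPM in every library.

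All 114 rows matched a GENCODE M21 gene by symbol, position and strand on GRCm38, of which 99 are annotated as functional V genes, 8 as V pseudogenes, 5 as J and 2 as C genes. The kappa locus lies on chromosome 6, where the Igkv rows run from 67555636 to 70704177, the Igkj rows from 70722562 to 70723927 and Igkc from 70726435 to 70726757, with Igkj and Igkc on the plus strand, 40 Igkv rows on the plus and 64 on the minus strand. The lambda rows lie on the minus strand of chromosome 16, Iglv1 at 19085017 to 19085460, Iglc2 at 19198401 to 19200351, Iglv3 at 19241211 to 19241679 and Iglv2 at 19260401 to 19260844. V rows named below are 287 to 366 bases long, apart from Igkv2-95-2 with 123 bases, and V shares are of counts with no correction for length.

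In V segments J is joined at the 3′ end, where related segments can also be told apart. The 3′ ends of the segments that led a library, and of Igkv1-135 and Igkv3-2, are shown. Each is the last 60 bases of the row's exon on GRCm38, read 5′ to 3′ on the coding strand from the GENCODE M21 transcripts, and capitals mark the codon of the conserved cysteine that ends the framework ahead of the third hypervariable loop. The lambda segments are included because their share differed most clearly between lymphoma and GC cells.
Igkv1-117, chr6:68121768-68121827 plus strand: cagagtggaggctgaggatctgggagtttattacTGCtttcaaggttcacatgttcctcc
Igkv1-110, chr6:68271208-68271267 plus strand: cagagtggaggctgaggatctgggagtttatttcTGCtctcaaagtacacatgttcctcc
Igkv1-135, chr6:67610449-67610508 plus strand: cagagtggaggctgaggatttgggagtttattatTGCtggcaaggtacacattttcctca
Igkv14-111, chr6:68256810-68256869 plus strand: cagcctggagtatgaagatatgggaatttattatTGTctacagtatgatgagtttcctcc
Igkv3-4, chr6:70672318-70672377 plus strand: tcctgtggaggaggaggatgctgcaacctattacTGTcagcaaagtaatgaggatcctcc
Igkv2-137, chr6:67556157-67556216 plus strand: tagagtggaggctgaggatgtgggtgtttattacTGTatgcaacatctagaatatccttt
Igkv3-2, chr6:70699008-70699067 plus strand: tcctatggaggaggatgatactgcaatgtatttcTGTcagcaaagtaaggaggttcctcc
Iglv1, chr16:19085017-19085076 minus strand: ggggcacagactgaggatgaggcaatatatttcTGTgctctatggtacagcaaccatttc
Iglv2, chr16:19260401-19260460 minus strand: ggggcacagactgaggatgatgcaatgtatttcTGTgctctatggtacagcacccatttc
Iglv3, chr16:19241211-19241270 minus strand: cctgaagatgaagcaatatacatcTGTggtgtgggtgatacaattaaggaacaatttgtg

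Igkv1-117 and Igkv1-110 differed at 4 of these 60 bases and were 97.2% identical over their whole rows. Igkv1-135 differed from Igkv1-117 at 7 of the 60 bases, Igkv2-137 at 16, Igkv14-111 at 20, Igkv3-4 at 24 and Igkv3-2 at 25. Iglv1 and Iglv2 differed at 3 of 60 bases (96.3% identical over the rows), whereas Iglv1 and Iglv3 were 55.7% identical. Reads that map to more than 1 place are not counted by the counter at its default, so similar rows can lose counts. Of all 50-base words in a row, 43.5% of those of Igkv1-117, 44.2% of Igkv1-110, 34.2% of Igkv3-4, 22.6% of Igkv3-2 and 25.2% of Iglv1 also occurred in another light chain gene, and 0% of those of Igkv14-111, Igkv2-137, Igkv14-130 and Iglv3. Levels of the first group are therefore less certain than those of the second.

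The 5 kappa J rows are shown whole, with capitals on the phenylalanine-glycine codons that open the motif with which a J segment folds into the variable domain.
Igkj1, chr6:70722562-70722599 plus strand: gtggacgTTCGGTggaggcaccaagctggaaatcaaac
Igkj2, chr6:70722916-70722958 plus strand: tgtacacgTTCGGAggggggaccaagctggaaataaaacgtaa
Igkj3, chr6:70723223-70723258 plus strand: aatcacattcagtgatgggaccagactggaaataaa
Igkj4, chr6:70723548-70723585 plus strand: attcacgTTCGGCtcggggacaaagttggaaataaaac
Igkj5, chr6:70723886-70723927 plus strand: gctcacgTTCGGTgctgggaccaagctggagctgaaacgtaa

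The row of Igkj3 holds neither TTCGG nor TTTGG, and in the mouse this J segment is known as nonfunctional. Every other J row holds TTCGG.

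Light chain rows took 0.544% to 0.839% of all counts in GC libraries and 0.0748% to 0.299% in lymphoma libraries. Scaled over the 14 libraries with TMM factors, the summed level was 4827, 4402, 5027 and 3513 CPM in the KO and 3970, 5383 and 4951 CPM in the WT GC libraries. It was 1922, 2157, 2027, 2920 and 2738 CPM in the control lymphomas and 3599 and 2678 CPM in the shTet2 lymphomas. All lymphoma libraries but shTet2 replicate 1 lay below all GC libraries. The mean was 2577 ± 592 CPM (SD, n = 7) in lymphoma against 4582 ± 657 CPM (SD, n = 7) in GC cells, and the difference passed an exact two-sided permutation test (p = 0.00117, adjusted p = 0.00699 over 6 measures of this comparison). Scaled instead to the counts outside the ribosomal and structural RNA rows, also as CPM, the levels were 2882 to 6082 in lymphoma and 5495 to 8436 in GC libraries (exact permutation adjusted p = 0.00699), a scale chosen after seeing the data.

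The kappa constant row Igkc carried most of this RNA, at 2102 to 3189 CPM in GC and 1052 to 2127 CPM in lymphoma libraries on the common scale. The lambda constant row Iglc2 ranged from 191 to 331 CPM in GC and from 130 to 243 CPM in lymphoma libraries, so its ranges overlapped. Ighm, the heavy chain that pairs with the light chain in IgM, was at 5529 to 7659 CPM in GC libraries, 3125 to 4169 CPM in control and 5987 and 6240 CPM in shTet2 lymphomas. Markers of plasma cells, which make antibody in bulk, were also lower in lymphoma than in GC libraries. All 15 genes of the list were in the tables and none was at 0 in every library. They summed to 1857 to 2343 CPM in GC, 654 to 914 CPM in control lymphoma and 1246 and 1503 CPM in shTet2 libraries. Within lymphoma the order differed from that of light chain RNA. Control replicates 4 and 5 had more light chain RNA (2920 and 2738 CPM) than shTet2 replicate 2 (2678 CPM), but lower plasma marker sums. The part of these markers in the light chain difference was not tested, and in such bulk samples fewer cells of a type and less RNA per cell cannot be told apart. Cell kind, deposited table and the share of ribosomal RNA also cannot be told apart in this comparison.

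**Figure D1:**
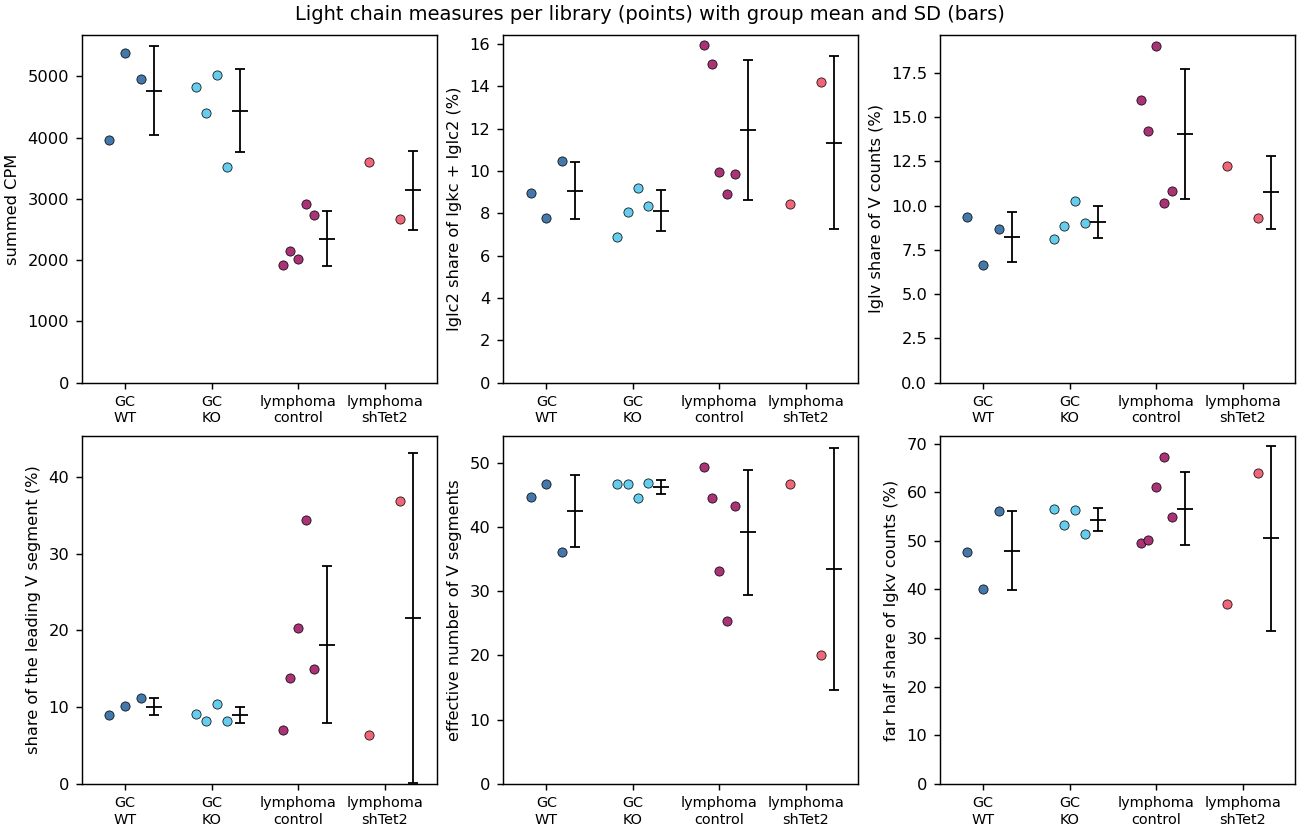
Each point is 1 library, in GC WT (n = 3), GC KO (n = 4), control lymphoma (n = 5) and shTet2 lymphoma (n = 2); the horizontal bar and whiskers to its right are the group mean and SD. The panels show summed CPM, the Iglc2 share of constant counts, the Iglv share of V counts, the share of the leading V segment, the effective number of V segments and the share of Igkv counts from segments beyond the midpoint of the locus; GC points are tight in the share of the leading segment (8.17% to 11.2%) while lymphoma points run from 6.41% to 36.8%.

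The balance of kappa and lambda was first read from the constant rows. Iglc1, Iglc3 and Iglc4 are not among the rows, so their RNA does not enter this balance. Igkc counts per Iglc2 count were 13.5, 11.4, 9.84 and 10.98 in the KO and 10.2, 11.8 and 8.54 in the WT GC libraries. They were 5.26, 5.64, 9.04, 10.2 and 9.14 in the control lymphomas and 10.8 and 6.03 in the shTet2 lymphomas. Since the Iglc2 row is 606 bases long and the Igkc row 323 bases, the same ratios per kilobase of row were 16.0 to 25.4 in GC and 9.87 to 20.3 in lymphoma libraries. Control replicates 1 and 2 and shTet2 replicate 2 fell below every GC library, and the other 4 lymphoma libraries lay within the GC range.

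Expressed as a share of constant counts, Iglc2 held 6.89% to 10.5% in GC and 8.45% to 16.0% in lymphoma libraries. The means were 8.53% ± 1.15 (SD, n = 7) in GC and 11.8% ± 3.18 (SD, n = 7) in lymphoma cells, a difference that did not pass the exact permutation test after adjustment (p = 0.0256, adjusted p = 0.0513). It passed when control replicate 4 (adjusted p = 0.0350, exact permutation test), shTet2 replicate 1 (adjusted p = 0.0192) or WT replicate 4 (adjusted p = 0.0163) was left out. Iglc2 is 95.1% identical to Iglc3 over 451 aligned bases, a gene not analysed here, so reads from the more similar stretches may be missing from the row.

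Lambda variable rows gave a clearer separation. Iglv rows held 8.12%, 8.86%, 10.3% and 9.02% of V counts in the KO and 9.36%, 6.62% and 8.66% in the WT GC libraries. The share was 16.0%, 14.2%, 19.0%, 10.2% and 10.8% in the control lymphomas and 12.2% and 9.30% in the shTet2 lymphomas. The mean was 13.1% ± 3.50 (SD, n = 7) in lymphoma against 8.70% ± 1.13 (SD, n = 7) in GC cells and passed the exact permutation test (p = 0.00291, adjusted p = 0.00874), although control replicate 4 and shTet2 replicate 2 overlapped the GC range.

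Within the lambda rows the segments did not move in parallel. Iglv3 held 1.79% to 2.77% of V counts in the 7 GC libraries and 3.81% to 6.84% in the 7 lymphoma libraries, so each lymphoma library exceeded each GC library. Iglv2 held 0.749% to 1.73% in GC and 1.15% to 2.93% in lymphoma libraries, which overlapped. Iglv1, the segment with the largest lambda share in GC cells, held 4.07% to 6.12% there. In lymphoma cells it held 6.58%, 5.13%, 11.3%, 4.12% and 5.11% in the controls and 4.76% and 3.86% in the shTet2 libraries. Control replicates 1 and 3 lay above the GC range, and replicate 3 was far above the other controls. In 4 of the 5 control lymphomas Iglv3 was among the 3 most counted V segments, and it was in none of the 7 GC libraries. These shares of single segments are descriptions and were not tested.

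The number of V counts was 49584 to 81171 in GC and 1637 to 14361 in lymphoma libraries, which limits how finely the lymphoma shares are known. Of the 107 V rows, 83 had counts in all 14 libraries and only Igkv2-95-2 had none in any. V rows with counts numbered 101 to 104 in GC and 92 to 100 in lymphoma libraries. At a common depth of 1637 V counts the expected numbers were 81.3 to 89.2 and 80.6 to 92.0, so the lower raw numbers in lymphoma went with depth. The 8 pseudogene rows held 0.0609% to 0.165% of V counts in GC and 0.0279% to 0.550% in lymphoma libraries.

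Of the V rows, 10 reached at least 1% of V counts in all 14 libraries, and 51 stayed below 1% in all of them. The former were Igkv1-135, Igkv1-117, Igkv14-111, Igkv1-110, Igkv10-96, Igkv19-93, Igkv5-39, Igkv6-15, Iglv1 and Iglv3. Igkv10-96 (1.63% to 4.403%) and Igkv6-15 (1.84% to 4.74%) were never among the 3 most counted segments of a library.

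In the 4 libraries labelled KO the same pair of related segments led each time. Igkv1-117 held 9.04%, 8.22%, 10.4% and 7.61% and Igkv1-110 held 8.30%, 7.65%, 8.61% and 8.17% of V counts in replicates 2, 3, 4 and 5. Igkv1-117 was first in 3 of these libraries and Igkv1-110 in replicate 5, where the exact 95% intervals of 7.38% to 7.85% and 7.93% to 8.41% did not overlap. The third place went to Iglv1 (5.58% and 6.12%) in replicates 2 and 4, to Igkv4-91 (5.81%) in replicate 3 and to Igkv1-135 (6.26%) in replicate 5.

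The WT GC libraries differed more among themselves. Replicate 1 was led by Igkv1-117 (8.90%) and Igkv14-111 (8.70%), replicate 3 by Igkv3-4 (10.1%) and Igkv14-111 (6.09%), and replicate 4 by Igkv14-111 (11.2%), Igkv3-4 (10.3%) and Igkv19-93 (8.44%). Igkv14-111 was thus among the top 2 segments of all 3 WT libraries and among the top 3 of no other library. V shares that 2 libraries had in common, summed over segments as the smaller of both shares, were 81.9% to 86.9% (median 84.7%) between the 6 pairs of KO libraries, 66.7% to 68.5% (median 67.3%) between the 3 pairs of WT libraries and 59.5% to 73.2% (median 64.1%) between KO and WT libraries. Every pair of replicates differed beyond counting error, with chi-square per degree of freedom of at least 3.55.

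All 5 control lymphomas were led by Igkv1-117, but to very different degrees. Its share was 7.06% (exact 95% interval 6.18% to 8.02%), 13.8% (12.2% to 15.6%), 20.4% (19.4% to 21.3%), 34.3% (33.2% to 35.5%) and 14.99% (14.1% to 15.9%) in replicates 1 to 5. The intervals cover counting error only, and those of replicates 2 and 5 overlap while the rest are apart. The next segment was Iglv3 in replicates 1, 2 and 4 (6.84%, 6.17% and 4.28%) and Iglv1 in replicates 3 and 5 (11.3% and 5.11%). Over all V segments, the 10 pairs of controls had 69.3% to 82.1% (median 79.0%) of V usage in common.

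The 2 shTet2 lymphomas had different leading segments from the controls and from each other. Replicate 1 spread its counts, with Igkv3-4 at 6.41% (exact 95% interval 6.02% to 6.83%), Iglv3 at 6.02% and Igkv14-126 at 5.26%. In replicate 2, Igkv2-137, the Igkv segment farthest from the J segments, held 36.8% (35.8% to 37.9%) and Igkv3-2 held 8.82%. Igkv2-137 stood at 0.648% in shTet2 replicate 1 and at 0.716% to 1.13% in the controls. Igkv1-117 held 4.83% and 3.69% in the shTet2 libraries, below all 5 controls. The shTet2 libraries had 57.2% of V usage in common with each other.

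**Figure D2:**
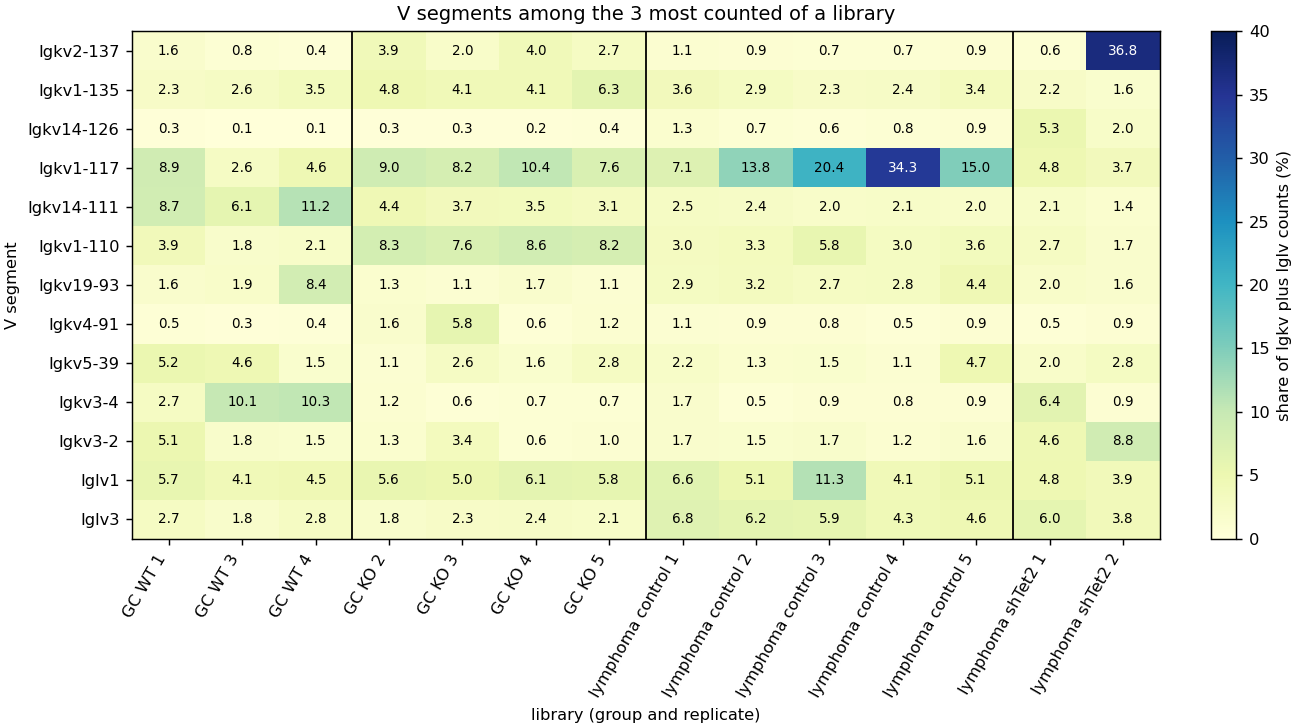
Colour and printed numbers give each V segment's percent of all Igkv plus Iglv counts in a library; rows are the 13 segments that were among the 3 most counted of at least 1 library, ordered along the kappa and then the lambda locus, and columns are the 14 libraries by group. Igkv1-117 is the darkest cell of the control lymphomas (up to 34.3%), Igkv2-137 that of shTet2 replicate 2 (36.8%), and the 4 GC KO columns resemble each other.

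Diversity was summarised as the effective number of V segments, the exponential of the Shannon entropy of the shares, which equals the number of segments if all were used evenly. It was 46.8, 46.7, 44.6 and 46.8 in the KO and 44.6, 46.7 and 36.2 in the WT GC libraries. It was 49.4, 44.6, 33.2, 25.4 and 43.3 in the control lymphomas and 46.8 and 20.1 in the shTet2 lymphomas. Lymphoma libraries therefore included both the most and the least diverse of the 14. The means of 37.5 ± 11.4 (SD, n = 7) and 44.6 ± 3.85 (SD, n = 7) differed by an amount that did not pass the exact permutation test (p = 0.142, adjusted p = 0.170).

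The share of the leading segment behaved alike, at 19.1% ± 12.2 (SD, n = 7) in lymphoma and 9.43% ± 1.15 (SD, n = 7) in GC libraries (exact permutation p = 0.0484, adjusted p = 0.0726). It passed the adjusted threshold among Igkv rows alone (adjusted p = 0.0490, exact permutation test) and without control replicate 1 (adjusted p = 0.0280) or shTet2 replicate 1 (adjusted p = 0.0192), the 2 lymphoma libraries with the lowest leading share. The 10 most counted segments together held 44.1% to 56.5% of V counts in GC and 44.9% to 67.2% in lymphoma libraries.

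Position along the kappa locus was read as the share of Igkv counts from the 45 segments beyond the midpoint of the Igkv span, seen from the J segments. That share was 56.5%, 53.1%, 56.3% and 51.5% in the KO and 47.7%, 39.99% and 56.2% in the WT GC libraries. It was 49.6%, 50.1%, 61.1%, 67.3% and 54.9% in the control lymphomas and 37.1% and 64.0% in the shTet2 lymphomas. The mean was 54.9% ± 10.4 (SD, n = 7) in lymphoma and 51.6% ± 6.04 (SD, n = 7) in GC cells, a difference that did not pass the exact permutation test (p = 0.482, adjusted p = 0.482). The 3 highest values came from control replicates 3 and 4, led by Igkv1-117, and shTet2 replicate 2, led by Igkv2-137. In these 3 libraries the leading segment held 20.4%, 34.3% and 36.8% of V counts. Igkv1-117 also led control replicates 1, 2 and 5, with 7.06%, 13.8% and 14.99% of V counts. The share beyond the midpoint was 49.6%, 50.1% and 54.9% there. The part of the leading segment in this share was not tested. The 40 Igkv rows on the plus strand, which join J by deletion rather than inversion, held 49.5% to 58.1% of Igkv counts in GC and 45.7% to 72.5% in lymphoma libraries.

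**Figure D3:**
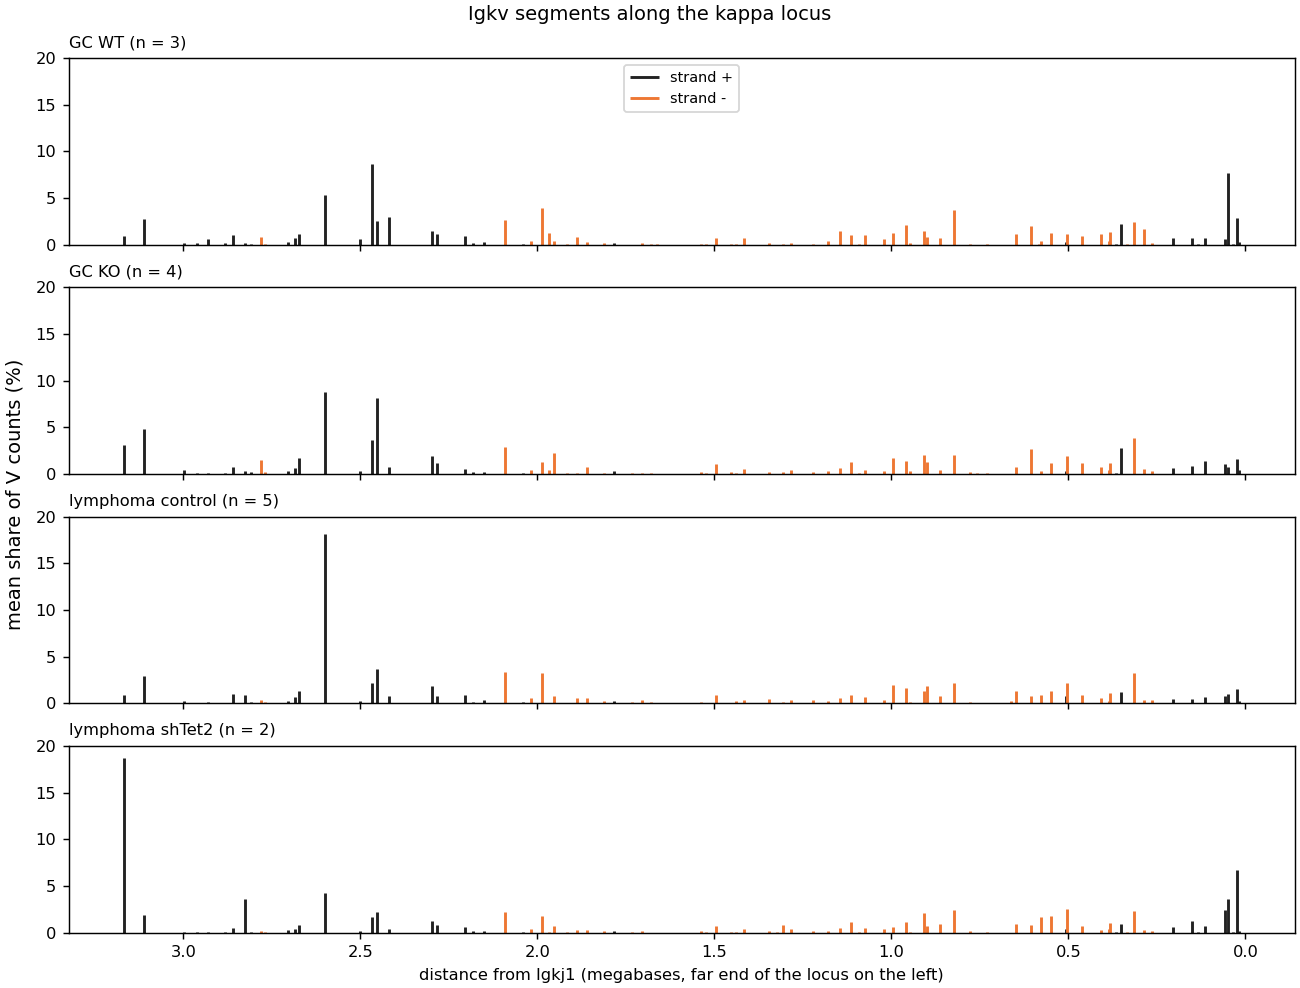
Each vertical line is 1 Igkv segment at its distance from Igkj1 in megabases, with the far end of the locus on the left; its height is the group's mean percent of V counts, in black for the plus and orange for the minus strand, and n is the number of libraries. The line at the far left of the shTet2 panel is Igkv2-137 (mean 18.7%), and the tall line of the control panel is Igkv1-117 (mean 18.1%).

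Counts in the J rows come from reads that touch no second counted row, since reads spanning V and J or J and C are ambiguous to the counter at its default. They numbered 6314 to 10118 in GC and 236 to 1245 in lymphoma libraries. Igkj2 held 25.8%, 23.4%, 24.6% and 21.2% of them in the KO and 33.2%, 35.6% and 28.7% in the WT libraries, which did not overlap. Igkj5 held 21.8% to 31.8% and Igkj1 21.3% to 27.9% over the 7 GC libraries. In the control lymphomas Igkj2 held 40.6%, 40.7%, 30.3%, 30.1% and 39.0%, and in the shTet2 lymphomas 39.6% and 56.4%. Control replicate 4, the library with the highest Igkv1-117 share, had the highest Igkj1 share (36.1%), and shTet2 replicate 2, led by Igkv2-137, the highest Igkj2 share.

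Igkj3, the segment without the phenylalanine-glycine codons, held 2.24% to 6.92% of J counts and was the lowest of the 5 in every library. Its counts per library were 195 to 338 in GC and 6 to 76 in lymphoma. None of the 5 J rows passed the edgeR test in either comparison. The smallest adjusted p was that of Igkj2 in KO against WT (log2 fold change -0.57 ± 0.19 SE, edgeR adjusted p = 0.139) and that of Igkj3 in shTet2 against control (0.77 ± 0.27 SE, edgeR adjusted p = 0.149).

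**Figure D4:**
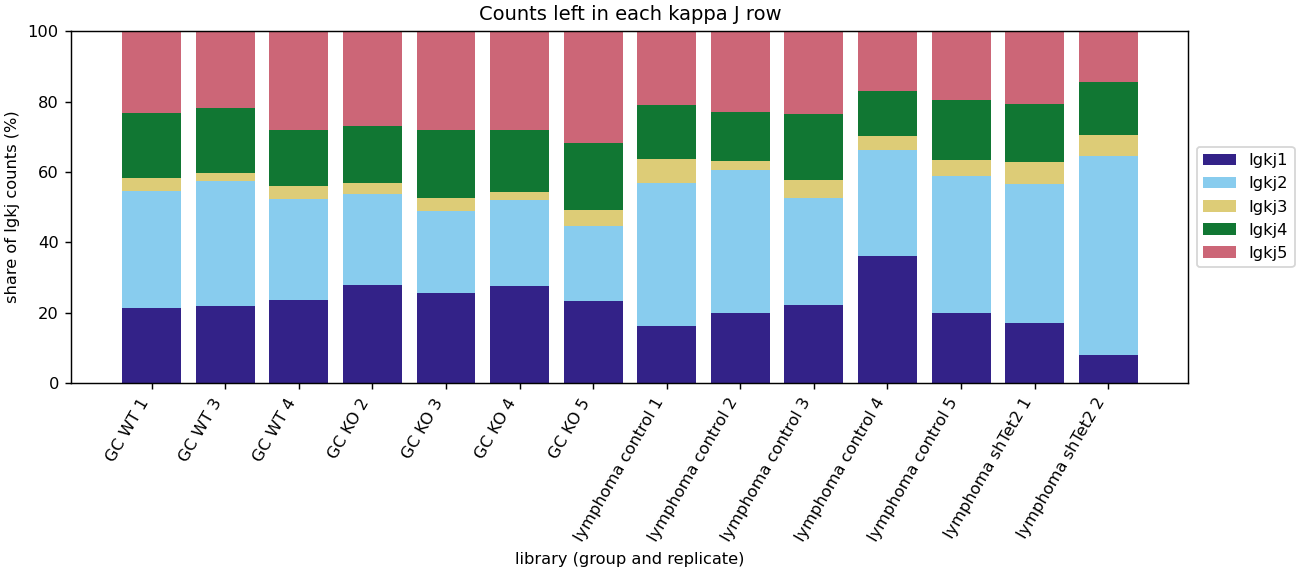
Stacked bars give the percent of Igkj counts in each of the 5 kappa J rows, for each library by group and replicate. Igkj2 is smaller in the 4 GC KO bars (21.2% to 25.8%) than in the 3 GC WT bars (28.7% to 35.6%) and largest in shTet2 replicate 2 (56.4%), and Igkj3 is the thinnest segment throughout.

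The libraries labelled KO and WT were compared to ask what the loss of TET2 does in GC B cells, with the limit that their Tet2 levels overlapped. The summed level, the Iglc2 and Iglv shares, the leading share, the effective number and the share beyond the midpoint all overlapped between KO and WT, and their exact permutation p-values were 0.171 to 0.571 (adjusted 0.549 to 0.571). With 35 arrangements of 4 and 3 libraries the smallest possible p is 0.0571, so these tests could not reach 0.05. Igkc was at 4692, 3931, 4547 and 3224 CPM in the KO and 3774, 5018 and 4501 CPM in the WT libraries, on the scale of the GC table (log2 fold change -0.11 ± 0.13 SE, edgeR adjusted p = 0.703). Iglc2 was at 347, 344, 462 and 294 CPM in the KO and 371, 425 and 527 CPM in the WT libraries (log2 fold change -0.29 ± 0.16 SE, edgeR adjusted p = 0.354).

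Some single V segments passed the edgeR test. Of 104 light chain rows tested, 5 were higher and 4 lower in KO by edgeR's quasi-likelihood test at an adjusted p under 0.05, against 1.92% of all 13600 genes tested called higher and 4.57% called lower. All 9 were Igkv rows. In either direction 8.65% of the light chain rows were called, near the 6.49% of all genes. The median log2 fold change over the light chain rows was 0.03, beside 0.01 over all genes, and the median size of the change regardless of sign was 0.65, beside 0.15. The median SE was also larger, 0.45 beside 0.12, so the light chain rows varied more between replicates than most genes.

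Igkv1-110, one of the pair that led the KO libraries, was at 168, 165, 204 and 135 CPM in KO and at 72.7, 47.7 and 53.9 CPM in WT. The KO values lay above all WT values (log2 fold change 1.53 ± 0.17 SE, edgeR adjusted p = 0.000325). Its near-identical relative Igkv1-117 was at 183, 178, 247 and 126 CPM in KO and at 168, 71.0 and 117 CPM in WT, which overlapped (log2 fold change 0.63 ± 0.36 SE, edgeR adjusted p = 0.432). Counts of these 2 rows are uncertain to the extent that reads from shared words were dropped.

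The other higher rows were less abundant. Igkv9-123 rose from 0.805, 1.43 and 0.371 CPM in WT to 5.30, 4.01, 3.73 and 3.11 CPM in KO (log2 fold change 2.20 ± 0.35 SE, edgeR adjusted p = 0.00132). Igkv4-74 was at 1.80, 1.99 and 2.3 CPM in WT and 4.23, 8.44, 3.56 and 5.19 CPM in KO, a log2 fold change of 1.40 ± 0.28 (SE, edgeR adjusted p = 0.00627). Neither overlapped between the groups, though 52.8% of the words of Igkv4-74 occur in another gene. Igkv6-13 (log2 fold change 0.89 ± 0.24 SE, edgeR adjusted p = 0.0439) had 4.63 to 9.20 CPM in KO and 2.96 to 5.11 CPM in WT, so its groups did overlap. Igkv5-37 (log2 fold change 3.21 ± 0.55 SE, edgeR adjusted p = 0.00281) had a mean under 2 CPM in the GC table, falls outside the rule for named rows and was added after its values were seen, with 1.36 to 3.53 CPM in KO and 0.0644 to 0.482 CPM in WT.

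The 4 lower rows included Igkv3-4 and Igkv14-111, which led WT replicates 3 and 4. Igkv1-117, which led WT replicate 1, was not among them. Igkv14-111 was at 89.2, 79.6, 82.7 and 51.1 CPM in KO and at 164, 164 and 286 CPM in WT (log2 fold change -1.44 ± 0.28 SE, edgeR adjusted p = 0.0388). Igkv14-130, of the same family and 81.9% identical to it, was at 2.301, 3.25, 1.46 and 2.58 CPM in KO and at 14.6, 19.3 and 10.8 CPM in WT (log2 fold change -2.63 ± 0.25 SE, edgeR adjusted p = 3.3e-05). Igkv3-4 was at 23.7, 11.9, 16.3 and 11.5 CPM in KO and at 50.8, 272 and 265 CPM in WT (log2 fold change -3.62 ± 0.69 SE, edgeR adjusted p = 0.0454). Igkv12-89 was at 1.27, 2.69, 2.68 and 2.07 CPM in KO and at 27.9, 15.7 and 6.90 CPM in WT (log2 fold change -2.95 ± 0.52 SE, edgeR adjusted p = 0.0257). The groups did not overlap for any of the 4, and WT replicate 1 was far below the other WT libraries for Igkv3-4.

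Igkv1-110, Igkv9-123, Igkv4-74, Igkv5-37 and Igkv14-130 passed in all 13 alternative analyses. The calls of Igkv12-89 and Igkv14-111 were lost in 5 of the 13 and those of Igkv3-4 and Igkv6-13 in 6. Igkv3-4 lost its call without any 1 of KO replicates 2 to 5 or WT replicates 3 and 4, Igkv12-89 without any 1 of KO replicates 2 to 5 or WT replicate 3, and Igkv14-111 without KO replicate 2, 3 or 4 or WT replicate 3. Igkv6-13 lost its call without KO replicate 2, 4 or 5 or WT replicate 1 or 4. The count of lower rows was 1 without KO replicate 2 or 3 and 2 when KO replicate 4 or 5 or WT replicate 3 was left out, and without WT replicate 3 the count of higher rows was 10. These fits called 607 to 944 of all genes, beside 883 in the main fit.

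Families of V segments, named by the first number of the symbol, are given as a description. The 11 Igkv1 rows held 24.1% to 27.0% of Igkv counts in KO and 8.70% to 17.9% in WT, while the 4 Igkv14 rows held 4.68% to 5.71% and 8.67% to 13.3%, and the 9 Igkv3 rows 5.48% to 10.8% and 12.3% to 17.6%. The 27 Igkv4 rows, the largest family, held 9.09% to 13.8% in KO and 7.14% to 12.1% in WT.

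**Figure D5:**
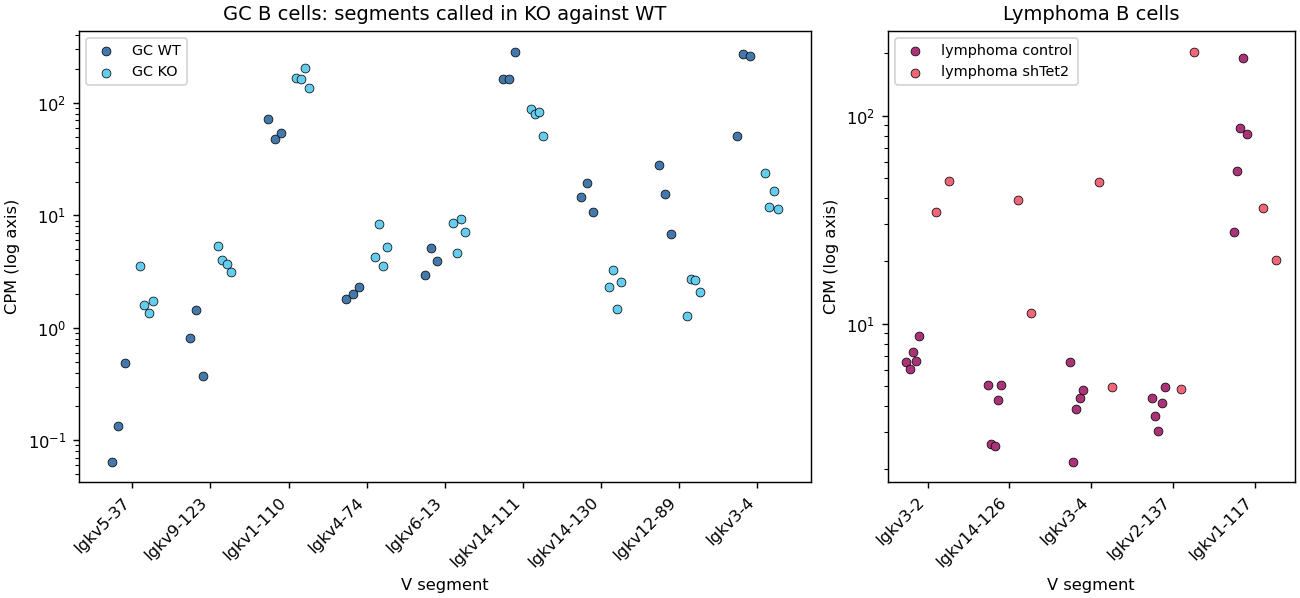
Points are CPM of single libraries on a log axis, each table scaled on its own. The left panel shows the 9 Igkv segments called between KO (n = 4) and WT (n = 3) GC libraries, and the right panel 5 segments in control (n = 5) and shTet2 (n = 2) lymphomas; Igkv3-2 is higher in both shTet2 libraries (34.5 and 48.5 CPM) than in all controls (6.02 to 8.66 CPM), while Igkv3-4 and Igkv2-137 are high in only 1 shTet2 library each.

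The libraries labelled shTet2 and control were compared in the same way, over 2 and 5 lymphoma libraries. The 6 library measures overlapped between shTet2 and control, with exact permutation p-values of 0.286 to 0.857 (adjusted 0.80 to 0.857) in a design whose smallest p is 0.0952. Igkc was at 1357 and 936 CPM in shTet2 and at 679, 824, 759, 1157 and 1037 CPM in control libraries, on the scale of the lymphoma table (log2 fold change 0.36 ± 0.22 SE, edgeR adjusted p = 0.427). Iglc2 was at 125 and 155 CPM in shTet2 and at 129, 146, 84.0, 113 and 113 CPM in control libraries (log2 fold change 0.27 ± 0.18 SE, edgeR adjusted p = 0.463).

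Of 83 light chain rows tested, only Igkv3-2 passed, as higher, and none was lower, against 1.84% of all 12797 genes called higher and 0.742% called lower. A share of 1.205% of the light chain rows was thus near the background, and 13 of the 83 rows had an unadjusted p under 0.05, beside 2447 of all 12797 genes. DESeq2 called 6 rows higher and 0 lower, with 599 of all genes called in either direction, beside 330 by edgeR. Igkv3-2, next to the V segment nearest to the J segments, was at 34.5 and 48.5 CPM in shTet2 and at 6.55, 6.02, 7.33, 6.57 and 8.66 CPM in control libraries (log2 fold change 2.54 ± 0.15 SE, edgeR adjusted p = 1.2e-05). The shTet2 values lay above all controls, and the call passed in all 13 alternative analyses. In the 2 of these that leave out a shTet2 library, the remaining one is assumed to vary like the controls. The count itself was 1 higher without any 1 of control replicates 1 to 4 and 2 higher without control replicate 5. These fits called 100 to 264 of all genes, beside 330 in the main fit. Counts of the fits with 1 shTet2 library left are not given.

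The most counted segment of each shTet2 library, Igkv3-4 in replicate 1 and Igkv2-137 in replicate 2, was within the control range in the other, and neither row passed. Igkv2-137 was at 4.85 and 203 CPM in shTet2 and at 3.05 to 4.98 CPM in controls (log2 fold change 4.68 ± 1.23 SE, edgeR adjusted p = 0.133). Igkv3-4 was at 48.0 and 4.96 CPM in shTet2 and at 2.17 to 6.55 CPM in controls (log2 fold change 2.58 ± 0.81 SE, edgeR adjusted p = 0.178). Igkv14-126 was at 39.4 and 11.3 CPM in shTet2 and at 2.58 to 5.06 CPM in controls, without overlap (log2 fold change 2.68 ± 0.49 SE, edgeR adjusted p = 0.0520). Igkv1-117 was at 36.1 and 20.3 CPM in shTet2 and at 27.5, 54.4, 86.8, 190 and 81.5 CPM in controls, which overlapped (log2 fold change -1.65 ± 0.83 SE, edgeR adjusted p = 0.3604).

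Both comparisons were also set against each other in 1 edgeR model of the 4 groups. Of 105 light chain rows tested, 2 had a higher and 2 a lower log2 fold change for shTet2 against control than for KO against WT, beside 3.39% and 1.61% of all 15441 genes. Igkv3-4 and Igkv3-2 were the former and Igkv9-123 and Igkv1-110 the latter, and no other light chain row passed. Igkv9-123 had only 2 to 10 counts in the control and 4 and 2 in the shTet2 libraries. It was too low to be tested in the lymphoma table alone. The difference of the log2 fold changes was 6.18 ± 1.08 (SE) for Igkv3-4 (edgeR adjusted p = 0.00941), 3.40 ± 0.81 for Igkv3-2 (edgeR adjusted p = 0.0400), -3.62 ± 0.79 for Igkv9-123 (edgeR adjusted p = 0.00988) and -1.79 ± 0.43 for Igkv1-110 (edgeR adjusted p = 0.0385). The model was added after the data were seen.

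Genes that act on light chains outside the segments were read from 5 lists, beside the 1.92% of all genes higher and 4.57% lower in KO. Of the V(D)J recombination and end joining list, 13 of 15 were tested and only H2afx, the histone variant marked at DNA breaks, was lower (407 ± 32.0 CPM SD, n = 4, against 527 ± 9.51 CPM, n = 3; log2 fold change -0.37, edgeR adjusted p = 0.0132). Of 21 tested promoter, enhancer and locus factors, only Brwd1, a chromatin reader needed for kappa recombination, passed, as higher (log2 fold change 0.45, edgeR adjusted p = 0.0484). The call of Brwd1 was lost without KO replicate 3, 4 or 5 or WT replicate 3 or 4, with RLE scaling and with scaling that left out immunoglobulin rows, whereas H2afx passed without any 1 library. None of the 14 somatic mutation genes, the 4 tested receptor partners or the 15 antibody folding and secretion genes passed. The nearest in these lists were Rev1 (log2 fold change 0.29, edgeR adjusted p = 0.121), Vpreb3 (0.24, edgeR adjusted p = 0.184) and Dnajb9 (0.44, edgeR adjusted p = 0.0522). Median log2 fold changes of the 5 lists were -0.05 to 0.06, beside 0.01 over all genes.

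The same lists were read in the shTet2 lymphomas, where 1.84% of all genes tested were higher and 0.742% lower. Of 15 antibody folding and secretion genes 5 were higher and 0 lower, among them Xbp1, the transcription factor of the secretory programme (70.6 ± 5.22 CPM SD, n = 2, against 40.05 ± 5.61 CPM, n = 5; log2 fold change 0.81, edgeR adjusted p = 0.00800), and the chaperones Canx and Calr (log2 fold changes 0.56 and 0.58, edgeR adjusted p = 0.0281 and 0.0282). The list's median log2 fold change was 0.78, beside -0.0041 over all genes. Of 4 tested receptor partners Ighm was higher (log2 fold change 0.70, edgeR adjusted p = 0.0101), and of 14 somatic mutation genes Polh and Ung, a polymerase and a glycosylase that act on deaminated V regions, were higher (log2 fold changes 0.70 and 0.99, edgeR adjusted p = 0.0296 and 0.0405). The calls of Xbp1 and Ighm held without any 1 library. Without 1 of control replicates 1 to 4, Canx, Calr, Polh and Ung lost theirs, as did Calr and Ung without control replicate 5 and Canx, Calr and Ung without shTet2 replicate 2. None of the 13 recombination genes or the 22 promoter and locus factors passed, Rag1 being lowest at -2.22 (edgeR adjusted p = 0.0832) from 0.739 CPM in controls and E2f1 at 1.22 (edgeR adjusted p = 0.0762). The surrogate light chain gene Vpreb2 was at 0 in all 14 libraries.

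Markers of other cells moved in part with these groups. In KO, where 4.57% of all genes were lower, 7 of 8 tested myeloid markers were lower, with summed levels of 19.2 to 21.1 CPM in KO and 33.0 to 44.0 CPM in WT on the common scale, and 2 of 15 plasma cell markers (Ly6c2 and Txndc5) were lower. The pan B marker Fcrla was lower (1 of 8), and of 6 tested T cell markers Thy1 was higher and Il2rb lower; no GC, erythroid or precursor marker passed. In shTet2, where 1.84% of all genes were higher, 4 of 13 tested plasma cell markers and 2 of 7 tested GC markers (Fas and S1pr2) were higher and no myeloid marker passed. Their part in the segment changes was not tested.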

How the data were processed

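RNA was extracted with Trizol and an RNeasy kit and sequenced from stranded mRNA libraries, per the labels' protocols. The authors' deposited values are unnormalised read counts, in 1 table for GC and 1 for lymphoma libraries. Per the submitters' processing notes reads were aligned with STAR 2.3.0e to GRCm38.p3. Per the file headers featureCounts 1.5.1 counted exons of GENCODE vM3 without options for strand, multi-mapping or overlapping features, so that, at the tool's defaults, V-J joint reads and reads with several matches are lost.

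Each table was tested with edgeR 4.0.16 (R 4.3.3) in its quasi-likelihood form with TMM factors, filterByExpr, robust dispersion and Benjamini-Hochberg adjustment over all genes at 0.05; DESeq2 1.42.0 was an alternative. CPM values use TMM factors of the table, or of all 14 libraries for summed levels. The SE is the log2 fold change over the root of F. For each comparison 6 library measures were compared by exact two-sided permutation tests with adjustment over the 6. Shares have exact binomial 95% intervals. The edgeR step was tested on simulated counts. Alternatives were RLE scaling, scaling without immunoglobulin or ribosomal rows, no filter, a replicate block and each library left out.

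Named rows were all C, J and Iglv rows, Igkv rows among the 3 most counted of a library, up to 8 called changes in each direction with a mean of at least 2 CPM, and up to 3 called members of each list. Members and lists were chosen with earlier results of these data known.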

Additional observations from a re-analysis of the deposited data

Results flagged for a closer look

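Light chain rows and measures were screened in the 4 KO and the 5 control lymphoma libraries. The 3 WT and 2 shTet2 libraries were too few to be screened. Among these 66 groups, 5 held a library far from the rest by Dixon's 95% limit, and chance marks about 1 in 20 groups. The effective number of V segments was 44.6 in KO replicate 4 and 46.7 to 46.8 in the other KO libraries. Igkv4-91 was at 125 CPM in KO replicate 3 and at 14.7 to 32.1 CPM in the other KO libraries. In control lymphoma replicate 5, Igkv5-39 was at 25.8 CPM (others 5.30 to 8.44) and Igkj4 at 11.1 CPM (others 6.68 to 7.95). Iglv1 was at 48.3 CPM in control lymphoma replicate 3 and at 20.2 to 27.8 CPM in the other controls.

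For 4 V segments the log2 fold change of shTet2 against control differed from that of KO against WT in the edgeR model of all 4 groups. The difference was -1.79 for Igkv1-110, 3.40 for Igkv3-2, 6.18 for Igkv3-4 and -3.62 for Igkv9-123, with edgeR adjusted p = 0.0385, 0.0400, 0.00941 and 0.00988. Igkv3-4 was high in only 1 of the 2 shTet2 libraries, and Igkv9-123 had only 4 and 2 counts in them. The Tet2 difference did not pass the adjusted edgeR test in either table.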

How the results depend on the processing

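The counts of called light chain rows moved most. For KO against WT, DESeq2 called 12 higher and 8 lower, no filter gave 9 higher, and the replicate block gave 11 higher and 7 lower. Of all genes these 3 fits called 1248, 1365 and 570 in either direction, beside 883 in the main fit. Leaving out 1 library gave 4 to 10 higher and 1 to 6 lower, with 607 to 944 of all genes called. For shTet2 against control, DESeq2 called 6 higher and no filter 1 lower. Leaving out 1 control library gave 1 to 2 higher and 0 lower, with 100 to 264 of all genes called. Fits with 1 shTet2 library left are not counted here. The replicate block kept 8 of the 9 KO calls, with Igkv6-13 lost, and the 1 shTet2 call; it lost those of H2afx in KO and of Xbp1, Canx, Calr, Ighm, Polh and Ung in shTet2, where it called 4 genes of all tested against 330 without it. Only 2 replicate numbers are shared in each comparison and no label ties them to 1 animal; deviations of same-numbered libraries correlated at 0.043 and -0.049 in GC and -0.109 and -0.0045 in lymphoma.

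Lambda rows that did not pass changed sign: without 1 library, the KO log2 fold change was -0.16 to 0.48 for Iglv2 and -0.061 to 0.14 for Iglv1, and that of shTet2 -0.50 to 0.26 for Iglv1 and -0.26 to 0.86 for Iglv3; in the replicate block shTet2 gave 0.29 for Iglv1 and -0.11 for Iglv2. In lymphoma against GC, the leading share differed by 11.5 percentage points among Igkv rows alone and by 6.73 to 11.8 without 1 library, and the Iglc2 share by 2.54 to 3.80. Control lymphoma against WT GC alone gave -2415 summed CPM and 5.82 points of Iglv share (exact permutation adjusted p = 0.107 for both). The 5 control and 3 WT libraries did not overlap in either measure. With so few libraries, the unadjusted p was then the smallest this test could give. Without 1 library, the shTet2 differences were -3.50 to 2.28 for the Iglc2 share, -19.5 to 7.41 for the share beyond the locus midpoint, -11.7 to 18.7 for the leading share and -19.0 to 7.58 for the effective number. The causes were not tested.

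The low V and J counts of lymphoma libraries and the number of shTet2 libraries (2) limit precision. Cell kind, table and ribosomal RNA share cannot be told apart, and the comparison of both effects was fitted in 1 way only.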
